A study of Mus musculus with 8 samples.

Results

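Platelets are shed from megakaryocytes without a nucleus and carry messenger RNA that the megakaryocyte made. 6 genes used as markers of that lineage, Ppbp, Pf4, Itga2b, Gp9, Gp1bb and Treml1, were followed through a microarray study of CD11b+ cells, out of 18145 genes tested in all. They were chosen by name and found through the platform annotation, which gave 7 probe sets with a single symbol for them, 1 each for 5 of the genes and 2 for Gp1bb. CD11b is an integrin chain of monocytes, macrophages and neutrophils, among other cells, and the tissue of origin was not stated in the labels.

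The cells came from NOD mice, an inbred strain that develops autoimmune diabetes, and from NOD.Idd3 mice, which are NOD mice congenic for the diabetes locus Idd3. They were cultured at 37 °C for 4 h, either without stimulus in medium or with peptidoglycan (PGN), a component of bacterial cell wall, at 5 µg/ml. Each of the 4 groups, unstimulated NOD, PGN-treated NOD, unstimulated NOD.Idd3 and PGN-treated NOD.Idd3, had 2 arrays numbered as biological replicates. The labels do not say whether these were single animals or pools, or how old or of which sex the mice were. A p-value here sets a difference against the spread between these arrays, as pooled in the fit. That spread may not be the spread between animals, and part of it may be technical. Values below are log2 of the deposited intensities unless a fold is named, and a gene was called at a Benjamini-Hochberg adjusted p under 0.05 in limma, over all genes tested.

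Ppbp encodes pro-platelet basic protein, whose processed forms attract neutrophils through CXCR2, and Pf4 encodes platelet factor 4, a heparin-binding protein of the same CXC chemokine family. Both are stored in platelet alpha granules. Itga2b encodes the alpha chain of the fibrinogen receptor, Gp9 and Gp1bb encode subunits of the receptor for von Willebrand factor, and Treml1 encodes a receptor that moves from alpha granules to the platelet surface on activation. GATA1 and ETS family factors such as FLI1 are known for driving megakaryocyte genes, and platelets bind readily to monocytes and neutrophils.

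The promoters of Ppbp and Pf4 are shown because these 2 genes, which lie side by side on chromosome 5, moved together on the arrays. Sequences are from RefSeq, build GRCm38.p6, from 250 bases before to 50 bases after the annotated start, at chr5:90768268-90768567 for Ppbp and chr5:90772185-90772484 for Pf4, both on the plus strand. Capitals mark matches on either strand to 6-letter GATA motifs (AGATAA or AGATAG in one form, TGATAA or TGATAG in the other) or to ETS motifs (CGGAAG or AGGAAG). No match overlapped another in these windows.
Ppbp: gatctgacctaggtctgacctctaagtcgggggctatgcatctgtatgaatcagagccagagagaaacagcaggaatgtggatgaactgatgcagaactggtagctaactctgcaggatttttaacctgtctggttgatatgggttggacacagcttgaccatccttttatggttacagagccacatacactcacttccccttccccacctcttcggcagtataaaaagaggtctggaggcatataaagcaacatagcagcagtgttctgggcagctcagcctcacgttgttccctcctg
Pf4: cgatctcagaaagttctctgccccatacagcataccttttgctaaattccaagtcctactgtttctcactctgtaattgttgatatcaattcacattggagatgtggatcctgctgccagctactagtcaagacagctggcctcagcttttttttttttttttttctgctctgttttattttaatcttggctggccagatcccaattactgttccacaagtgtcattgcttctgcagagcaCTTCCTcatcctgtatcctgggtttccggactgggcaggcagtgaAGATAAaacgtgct
The Pf4 window held 1 GATA match, AGATAA, beginning 36 bases after the start, and 1 ETS match, AGGAAG on the minus strand, beginning 9 bases before it. The Ppbp window held neither. Of the other 4 genes, Gp1bb had 1 GATA and 2 ETS matches, Itga2b had 2 ETS matches, Gp9 had 1 ETS match and Treml1 had none. Among 32544 distinct promoter windows of this length in RefSeq, 29.6% held a GATA match, 46.3% an ETS match and 12.5% both, so that such matches are common, and a match or its lack is a description of the letters only.

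Ppbp had the widest range of the 6 genes. In unstimulated cells it stood at 11.61 and 10.45 in NOD (replicates 1 and 2) and at 10.37 and 9.51 in NOD.Idd3. With PGN it stood at 8.61 and 7.44 in NOD and at 8.50 and 6.72 in NOD.Idd3. The 4 PGN-treated arrays all lay below the 4 unstimulated ones. On the linear scale this was 3124 down to 390 units in replicate 1 of NOD and 1403 down to 174 in replicate 2.

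Pf4 followed the same order of groups over a smaller range. It stood at 11.61 and 10.84 in unstimulated NOD, 10.79 and 9.85 in unstimulated NOD.Idd3, 9.46 and 9.52 in PGN-treated NOD, and 9.10 and 8.82 in PGN-treated NOD.Idd3. Again no PGN-treated array reached an unstimulated one. Group means for Ppbp were 11.03 ± 0.82 (SD, n = 2) in unstimulated NOD, 9.94 ± 0.61 in unstimulated NOD.Idd3, 8.02 ± 0.82 in PGN-treated NOD and 7.61 ± 1.26 in PGN-treated NOD.Idd3. For Pf4 they were 11.23 ± 0.54, 10.32 ± 0.66, 9.49 ± 0.04 and 8.96 ± 0.20 in that order. The differences between neighbours of the same condition in this order, which are strain differences, did not pass the test given below. Which cells of the samples carried these transcripts was not measured. Fewer platelets among the cells and less of these transcripts per cell, of whichever kind, cannot be told apart in such bulk RNA.

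The other 4 genes were dimmer than Ppbp and Pf4 were in unstimulated cells, and varied over smaller ranges. Itga2b lay between 5.45 and 6.68, Gp9 between 6.32 and 6.77, Treml1 between 5.04 and 5.89 and Gp1bb between 4.98 and 5.22, where the median of all probe sets was 5.42 to 5.50 and the 25th percentile 3.84 to 4.05, depending on the array. Itga2b stood at 5.99 and 5.99 in unstimulated and 6.68 and 6.30 in PGN-treated NOD, and at 5.45 and 5.93 in unstimulated and 5.70 and 5.95 in PGN-treated NOD.Idd3. Its highest values were therefore the PGN-treated NOD arrays, the opposite side from Ppbp. Gp1bb lay below the array median on all 8 arrays, and Treml1 on either side of it.

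**Figure D1:**
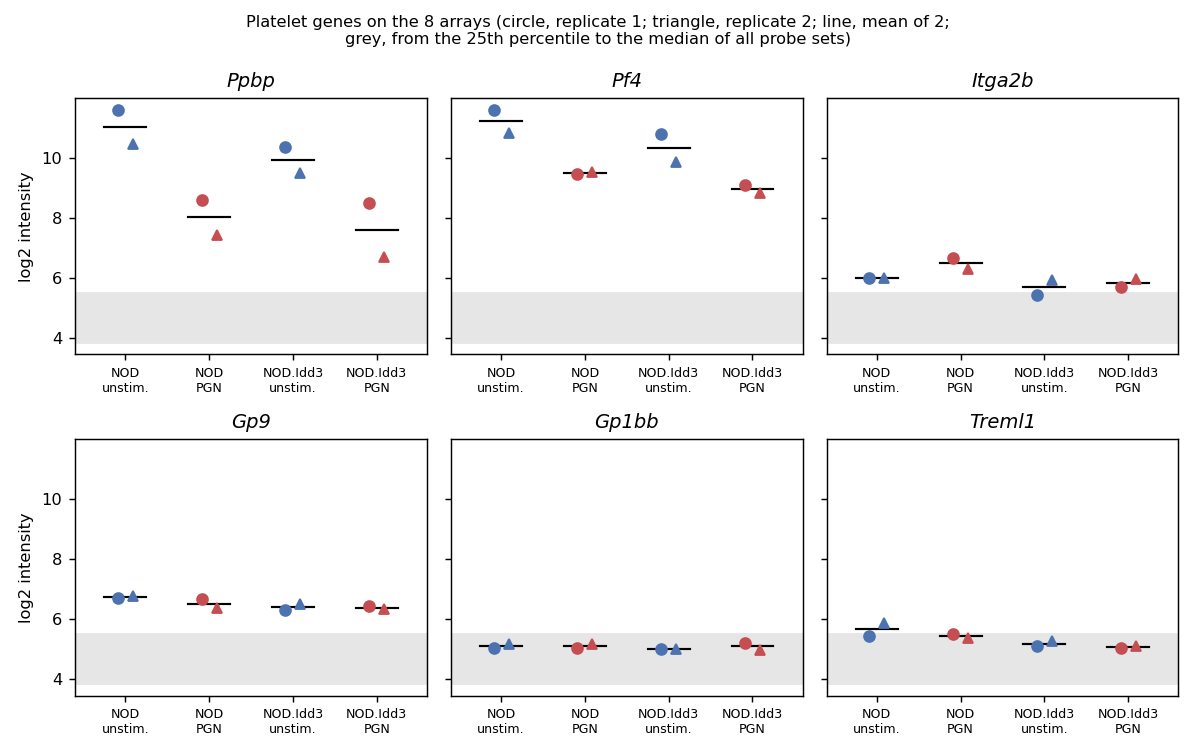
Log2 intensity (y axis) of the 6 platelet genes in the 4 groups, with 1 point per array, a line at the mean of the 2 arrays of a group, and a grey band from the 25th percentile to the median of all probe sets. Ppbp and Pf4 drop in both strains with PGN, while Itga2b, Gp9, Gp1bb and Treml1 stay between 4.98 and 6.77.

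The first comparison asked how PGN changed these genes. Averaged over strains, Ppbp fell by 2.67 ± 0.46 (SE, 4 arrays per condition) on the log2 scale, a 6.37-fold difference, with an adjusted p of 0.00719 in limma. Pf4 fell by 1.55 ± 0.25, or 2.93-fold (adjusted p = 0.00541). The 4 remaining genes were not called, with changes of 0.32 ± 0.17 for Itga2b (adjusted p = 0.293), -0.12 ± 0.14 for Gp9 (0.671), -0.17 ± 0.16 for Treml1 (0.541) and 0.03 ± 0.14 for Gp1bb (0.913). The 95% intervals of these 4 reached at most 0.72 upward (Itga2b) and -0.53 downward (Treml1). Gp1bb, Treml1 and Itga2b lay near or below the array median in unstimulated cells too, which limits how large a fall could be seen for them. The members were picked with earlier results of these arrays known, and their count, 2 of 6 called lower, is given beside 6.4% of all genes (11.3% in either direction, 4.88% higher). The same 2 genes were those whose 4 PGN-treated arrays did not overlap the 4 unstimulated ones in the downward direction, as for 9.41% of all genes (18% in either direction). The median change of the 6 was -0.14, and that of all genes 0.05.

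The fall was seen within each replicate number. For Ppbp the change was -3.00 and -3.01 in NOD and -1.87 and -2.80 in NOD.Idd3 (replicates 1 and 2). For Pf4 it was -2.15 and -1.33 in NOD and -1.69 and -1.03 in NOD.Idd3. All 4 differences were downward for both genes, Gp9, Treml1 and Gp1bb were lower in 3 of 4, and Itga2b was higher in 4 of 4.

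Taken by strain, Ppbp changed by -3.01 ± 0.64 in NOD (2 arrays per group, adjusted p = 0.0395) and Pf4 by -1.74 ± 0.35 (0.0323), so 2 of 6 genes were called where 2.12% of all genes were called lower and 3.94% in either direction. In this fit, which has no term for the replicate number, these calls were close to the threshold. Both were lost without any 1 of the 4 NOD arrays, with an adjusted p for Ppbp of 0.116 and 0.0983 when replicate 1 or 2 of unstimulated NOD was left out, and of 0.0573 and 0.194 when that of PGN-treated NOD was. For Pf4 these were 0.0938, 0.0705, 0.103 and 0.133. The call for Ppbp was also lost without either unstimulated NOD.Idd3 array (0.0543 for each).

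In NOD.Idd3, Ppbp changed by -2.33 ± 0.64 (adjusted p = 0.104) and Pf4 by -1.36 ± 0.35 (0.0864), and none of the 6 was called, where 1.24% of all genes were called lower and 3.13% in either direction. With the replicate number as a term in the fit, the replicate block, both passed in NOD.Idd3 (adjusted p = 0.00266 for Ppbp and 0.0226 for Pf4). In NOD both stayed called with the block in limma (adjusted p = 0.000859 for Ppbp and 0.00764 for Pf4). Over all genes, 1204 were called with the block in NOD.Idd3 and 1582 in NOD. The difference in PGN effect between the strains (NOD.Idd3 minus NOD) was 0.67 ± 0.91 for Ppbp, with a 95% interval from -1.40 to 2.74, and 0.38 ± 0.50 for Pf4, from -0.75 to 1.51. Neither passed in limma (adjusted p = 1.00 for each), nor did any of the 18145 genes, of which 313 had an unadjusted p under 0.05. Both intervals are wider than the change measured in NOD.

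**Figure D2:**
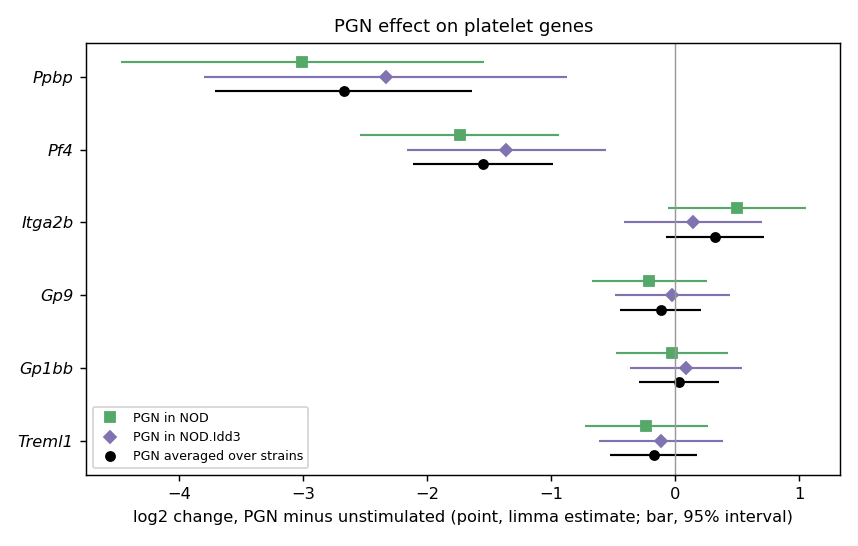
Log2 change with PGN (x axis) of the 6 genes in NOD, in NOD.Idd3 and averaged over both, with limma estimates as points and 95% intervals as bars. The averaged values of Ppbp and Pf4 are -2.67 and -1.55, and the bars of the other 4 genes include 0.

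Ppbp was lower in replicate 2 than in replicate 1 of every group. Replicate 2 minus replicate 1 was -1.15 in unstimulated and -1.16 in PGN-treated NOD, and -0.86 in unstimulated and -1.79 in PGN-treated NOD.Idd3. Pf4 was lower in replicate 2 in unstimulated cells of both strains (-0.77 in NOD, -0.94 in NOD.Idd3) but differed little with PGN (0.06 and -0.29). The other 4 genes had no common direction, with Itga2b at 0.00, -0.39, 0.48 and 0.25. The arrays of replicate 1 share a date in their labels, and what else differed between the numbers is not given. With the block, the SE of the averaged PGN effect fell from 0.46 to 0.17 for Ppbp and from 0.25 to 0.19 for Pf4.

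Ppbp and Pf4 were correlated over the 8 arrays at a Pearson r of 0.94, which describes arrays that share the PGN and strain groups. Their changes were not equal in size. The difference Ppbp minus Pf4 lay between -0.42 and 0.00 on the unstimulated arrays, and with PGN it was -0.85 and -2.07 in NOD and -0.60 and -2.10 in NOD.Idd3. The gap was thus widest on the replicate 2 arrays with PGN. Among the other genes, Gp9 and Treml1 had r = 0.86, and no other pair of the 6 exceeded 0.56. Itga2b ran against Ppbp (r = -0.31) and Pf4 (-0.26), and for Gp1bb r was 0.00 and -0.04.

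The 2 probe sets of Gp1bb gave different patterns. The brighter one, used above, lay within 0.24 over the 8 arrays. The dimmer one stood at 4.10 and 5.05 in unstimulated and 4.05 and 3.98 in PGN-treated NOD, and at 3.62 and 3.76 in unstimulated and 4.97 and 4.11 in PGN-treated NOD.Idd3. In a fit of each probe set by itself its PGN effect was -0.56 ± 0.36 in NOD and 0.85 ± 0.36 in NOD.Idd3, and the difference between strains was 1.41 ± 0.51 (unadjusted p = 0.0225, adjusted p = 1.00 in limma). Most of these values lay near the 25th percentile of the arrays. A further probe set lists Gp1bb together with a neighbouring gene, so its signal cannot be assigned to Gp1bb, and it was not used here. It lay between 6.79 and 8.96. With PGN it changed by -0.42 and -0.83 in NOD and by -0.31 and -0.63 in NOD.Idd3 (replicates 1 and 2). NOD.Idd3 minus NOD was 1.53 and -0.03 in unstimulated and 1.64 and 0.17 in PGN-treated cells.

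The second comparison asked whether the strains differed. Averaged over conditions, all 6 genes had lower means in NOD.Idd3, and none was called. The differences (NOD.Idd3 minus NOD, 4 arrays per strain) were -0.75 ± 0.46 for Ppbp (adjusted p = 0.853), -0.72 ± 0.25 for Pf4, -0.48 ± 0.17 for Itga2b and -0.42 ± 0.16 for Treml1 (0.732 for each of the 3), -0.23 ± 0.14 for Gp9 (0.859) and -0.05 ± 0.14 for Gp1bb (0.965). At an unadjusted p under 0.05 limma had 1171 genes for this contrast, among them Pf4 (0.0190), Itga2b (0.0221) and Treml1 (0.0240), and 0% of all genes were called. With the replicate block 27 genes passed, none of them among the 6, with 0.234 for Ppbp and 0.283 for Pf4 as adjusted p. The median difference of the 6 was -0.45, beside -0.03 for all genes, of which 55.4% were lower. A lower level of platelet genes in NOD.Idd3 was known from these arrays when the 6 were chosen, so this repeats that result and is no independent support for it.

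Array by array, 5 of the 6 genes were lower in NOD.Idd3 in all 4 comparisons of the same condition and replicate number, as were 9.88% of all genes. For Pf4 the differences were -0.82 and -0.99 in unstimulated and -0.35 and -0.70 in PGN-treated cells (replicates 1 and 2). For Ppbp they were -1.24 and -0.94 in unstimulated and -0.11 and -0.73 in PGN-treated cells. Gp1bb was lower in 3 of 4. The arrays of the strains did not overlap for Itga2b (5.99 to 6.68 in NOD, 5.45 to 5.95 in NOD.Idd3) and Treml1 (5.38 to 5.89, and 5.04 to 5.28), where 1.77% of all genes were lower without overlap and 2.84% differed without overlap in either direction.

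**Figure D3:**
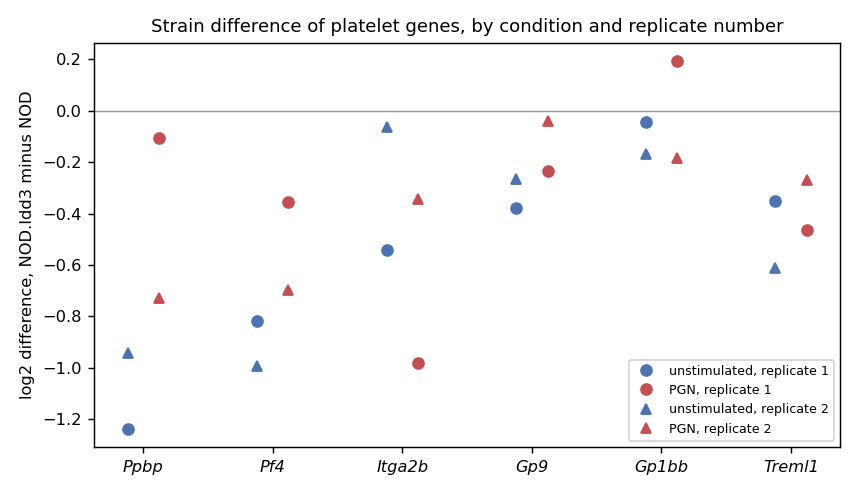
Log2 difference NOD.Idd3 minus NOD (y axis) of the 6 genes between arrays of the same condition (colour) and replicate number (shape). All points lie below 0 except that of Gp1bb with PGN in replicate 1, at 0.19.

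By condition, the strain difference in unstimulated cells was -0.91 ± 0.35 for Pf4, -1.09 ± 0.64 for Ppbp and -0.48 ± 0.22 for Treml1, with an adjusted p of 1.00 for each in limma. With PGN it was -0.66 ± 0.24 for Itga2b, -0.53 ± 0.35 for Pf4 and -0.42 ± 0.64 for Ppbp, where the adjusted p was 0.851 for the first pair and 0.907 for Ppbp. Of all genes 0% were called in either condition, and 609 and 982 had an unadjusted p under 0.05.

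The marker lists of other cells gave the following strain values. Among B cell markers 8 of 9 had lower means in NOD.Idd3 (median -1.10), and their summed intensity ran from 1557 to 5119 in NOD and from 765 to 1532 in NOD.Idd3. Of 10 macrophage markers 8 were lower (median -1.25), with sums of 22702 to 26647 and 19093 to 23442. None of these was called, and 4 of each list were called with the replicate block, beside 27 of all 18145 genes. Of 7 erythroid markers 4 were lower (median -0.36), with sums of 162 to 306 and 115 to 131. The remaining lists had medians nearer to that of all genes. Lower means were found for 4 of 10 neutrophil (median 0.05), 2 of 7 monocyte (0.14) and 6 of 10 T cell markers (-0.13). They were also found for 5 of 8 mast cell and basophil (-0.08) and 4 of 8 endothelial markers (-0.03). The log2 difference between the 3' and 5' control probe sets of Gapdh, a measure of RNA or labelling quality, lay between 0.88 and 1.16 in NOD and between 0.72 and 0.80 in NOD.Idd3. For Actb it lay between 0.43 and 0.58 in NOD and between 0.22 and 0.46 in NOD.Idd3, which overlap. No marker had a value of 0, but none could, as the lowest intensity of any probe set was 3.97 on the linear scale. The lack of such values therefore does not show that a marker was detected. Some markers were dim, with log2 means over all arrays of 2.67 for Rhag, 3.22 for Kel and 3.20 for Fcer1a. These lay at percentiles 0.37, 5.62 and 5.28 of all genes. What part the strain differences of the marker lists and control probe sets had in those of the platelet genes was not tested.

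With PGN, none of 7 erythroid and none of 9 B cell markers was called (medians -0.14 and -0.10). Of 10 T cell markers 1 rose and 1 fell, of 10 neutrophil markers 2 fell, of 10 macrophage markers 1 fell, of 7 monocyte markers 1 rose and 1 fell, of 8 endothelial markers 1 rose, and none of 8 mast cell and basophil markers was called. With the replicate block 3 B cell and 3 neutrophil markers fell, 2 T cell markers rose and 2 fell, 1 mast cell or basophil marker rose, and the counts of the remaining lists were as without it. Beside these counts, 4.88% of all genes were called higher and 6.4% lower without the block. With it 3075 of 18145 were called in either direction. Summed over its markers, the neutrophil list ran from 129510 to 167552 on unstimulated and from 118450 to 128346 on PGN-treated arrays, and the mast cell and basophil list from 230 to 256 and from 299 to 419. Their part in the falls of Ppbp and Pf4 was not tested. The CD11b gene itself, Itgam, lay between 7.87 and 9.02 on the 8 arrays and was not called (-0.48 ± 0.19, adjusted p = 0.163, and 0.0464 with the replicate block). Other myeloid genes were bright, with Lyz2 at 13.72 to 14.28, Cd14 at 14.17 to 14.65 and Csf1r at 13.51 to 14.05.

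Ppbp and Pf4 lie within a run of CXC chemokine genes on chromosome 5, in the RefSeq order Cxcl5, Ppbp, Pf4, Cxcl3, Cxcl15, Cxcl1 and Cxcl2. With PGN, averaged over strains, these were the 2 genes of the run that fell. Cxcl1, a neutrophil attractant made by activated macrophages, rose by 2.66 ± 0.60 (adjusted p = 0.0243), from 11.48 and 8.71 to 13.28 and 13.22 in NOD and from 11.53 and 9.48 to 12.89 and 12.45 in NOD.Idd3. The remaining 4 were not called: Cxcl2 changed by 0.81 ± 0.25 (0.0736), Cxcl5 by 1.03 ± 0.60 (0.335), Cxcl15 by 0.39 ± 0.20 (0.264) and Cxcl3 by 0.26 ± 0.23 (0.525). Cxcl2 stood at 12.11 to 13.91 and Cxcl3 at 12.28 to 13.50 over the 8 arrays. With the replicate block Cxcl2 (0.0216) and Cxcl5 (0.0150) passed too.

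Cxcr2, the receptor gene for the neutrophil-attracting members, fell by 1.79 ± 0.44 (adjusted p = 0.0330), and Cxcr3, whose product has been described as a receptor for PF4, changed by -0.90 ± 0.25 (0.0531, and 0.00984 with the block). Cxcr1 was not analysed here. The call for Cxcl1 was lost without any 1 of the 4 PGN-treated arrays or replicate 2 of unstimulated NOD.Idd3 (adjusted p of 0.0602 to 0.0756), and with a term for the suffix RR1 of some array names (0.0648). That for Cxcr2 was lost without any 1 of the 4 unstimulated arrays or replicate 2 of PGN-treated NOD.Idd3 (0.0768 to 0.108), and after a further quantile normalization, where its adjusted p stood just over the threshold.

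**Figure D4:**
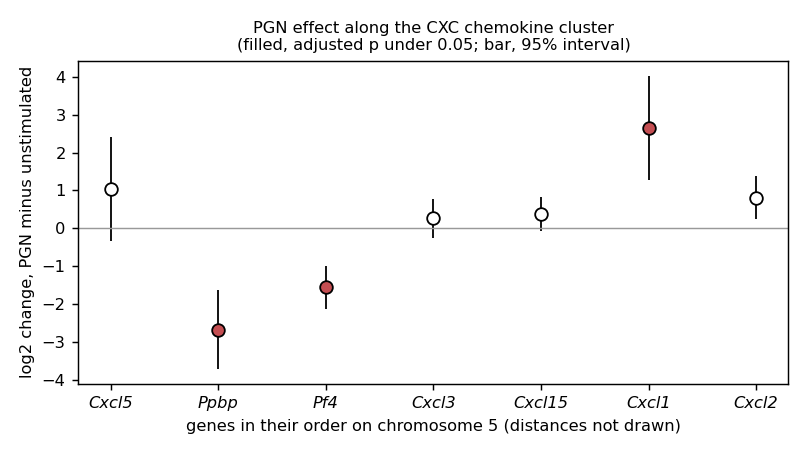
Log2 change with PGN averaged over strains (y axis, limma estimate with 95% interval) of 7 CXC chemokine genes in their order on chromosome 5. Ppbp and Pf4 lie below 0, at -2.67 and -1.55, next to Cxcl5 at 1.03 and Cxcl3 at 0.26, and Cxcl1 is the highest at 2.66.

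Wider lists of platelet and megakaryocyte genes did not share 1 direction with PGN. Beside the counts of these lists, 6.4% of all genes were called lower and 4.88% higher. With the replicate block, 3075 of all 18145 genes were called in either direction. Among 14 measured genes of granule cargo, Pdgfa, which encodes a platelet-derived growth factor chain, rose by 1.68 ± 0.32 (adjusted p = 0.0114) and coagulation factor gene F5 fell by 1.13 ± 0.23 (0.0157), while 12 were not called (median 0.06). With the replicate block 4 rose and 1 fell, with Pdgfb (0.87 ± 0.14), Thbs1 (0.76 ± 0.20) and F13a1 (0.72 ± 0.14) added. Their adjusted p was 0.0669, 0.109 and 0.277 without the block and 0.00451, 0.0376 and 0.00971 with it. As the mean of its probe sets, Thbs1 changed by 1.38 (adjusted p = 0.00930). The call for F5 was lost without replicate 2 of unstimulated NOD (0.0580), replicate 1 of PGN-treated NOD (0.0508) or replicates 1 and 2 of unstimulated NOD.Idd3 (0.0552 and 0.0541).

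Among 17 surface receptor genes, Itga6, the laminin receptor chain, fell by 1.04 ± 0.22 (adjusted p = 0.0169), and 16 were not called (median -0.19). That count stands beside 6.4% of all genes called lower. Its call was lost without replicate 1 of PGN-treated NOD (0.0519), replicates 1 and 2 of unstimulated NOD.Idd3 (0.0525 and 0.0651) or replicate 2 of PGN-treated NOD.Idd3 (0.0586), and with the mean of its probe sets (-0.51, adjusted p = 0.110). Cd36, a scavenger receptor gene that macrophages also express, changed by -1.54 ± 0.42 (0.0502), Esam by -1.61 ± 0.48 (0.0687), P2ry1, an ADP receptor gene, by -0.56 ± 0.18 (0.0882) and Clec1b by -0.65 ± 0.23 (0.113). The collagen receptor gene Gp6 changed by 0.59 ± 0.24 (0.171). Itgb3, whose product pairs with that of Itga2b, changed by -0.62 ± 0.26 (0.181), and was named after its value was seen. With the block 4 of the 17 fell, Itga6 and also Cd36 (0.0184), Esam (0.00178) and P2ry1 (0.0311).

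In the list of signalling, cytoskeleton and enzyme genes 3 of 18 fell and 3 rose (median -0.42), and with the replicate block 4 fell and 3 rose. Without the block, 6.4% of all genes were called lower and 4.88% higher. Rgs18, a regulator of G protein signalling in platelets and other blood cells, fell by 2.47 ± 0.39 (adjusted p = 0.00477), Rasgrp2, which encodes an activator of Rap1, by 2.09 ± 0.23 (0.00104) and Nbeal2, which is needed for alpha granules, by 1.97 ± 0.21 (0.000965). As the mean of their probe sets Rasgrp2 fell by 1.17 (0.00278) and Nbeal2 by 1.29 (0.00991). Pde5a rose by 1.66 ± 0.22 (0.00213) and Stom by 0.96 ± 0.17 (0.00836).

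Tubb1, which encodes the beta-tubulin of the platelet marginal band, rose by 2.19 ± 0.45 (adjusted p = 0.0164), against the direction of Ppbp and Pf4. It stood at 9.10 and 8.52 in unstimulated and 11.50 and 10.57 in PGN-treated NOD, and at 8.31 and 6.88 in unstimulated and 10.66 and 8.84 in PGN-treated NOD.Idd3. Each PGN-treated array was above the unstimulated arrays of its strain, while over both strains the conditions overlapped. The call was lost without replicate 2 of unstimulated NOD (0.0625), replicate 1 of PGN-treated NOD (0.0547) or replicate 2 of unstimulated NOD.Idd3 (0.0560).

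Of 9 measured transcription factor genes of megakaryocytes 5 fell and 1 rose (median -1.33), beside 6.4% of all genes called lower and 4.88% higher. Several of the 9 are also expressed by other blood cells. Nfe2, needed for platelet formation, fell by 2.13 ± 0.21 (adjusted p = 0.000709), from 10.69 and 11.55 to 8.42 and 8.66 in NOD and from 11.03 and 11.17 to 9.56 and 9.28 in NOD.Idd3. Mef2c fell by 1.60 ± 0.24 (0.00354), the ETS factor gene Fli1 by 1.38 ± 0.24 (0.00791), Hhex by 1.37 ± 0.20 (0.00348) and Gfi1b by 1.33 ± 0.35 (0.0407). Runx1 rose by 1.58 ± 0.14 (0.000557). The call for Gfi1b was lost without any 1 of 6 arrays, all but replicate 1 of unstimulated NOD and replicate 2 of PGN-treated NOD (adjusted p of 0.0767 to 0.128), and after a further quantile normalization (0.0530). Gata1 lay between 5.11 and 6.64, near the array median.

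**Figure D5:**
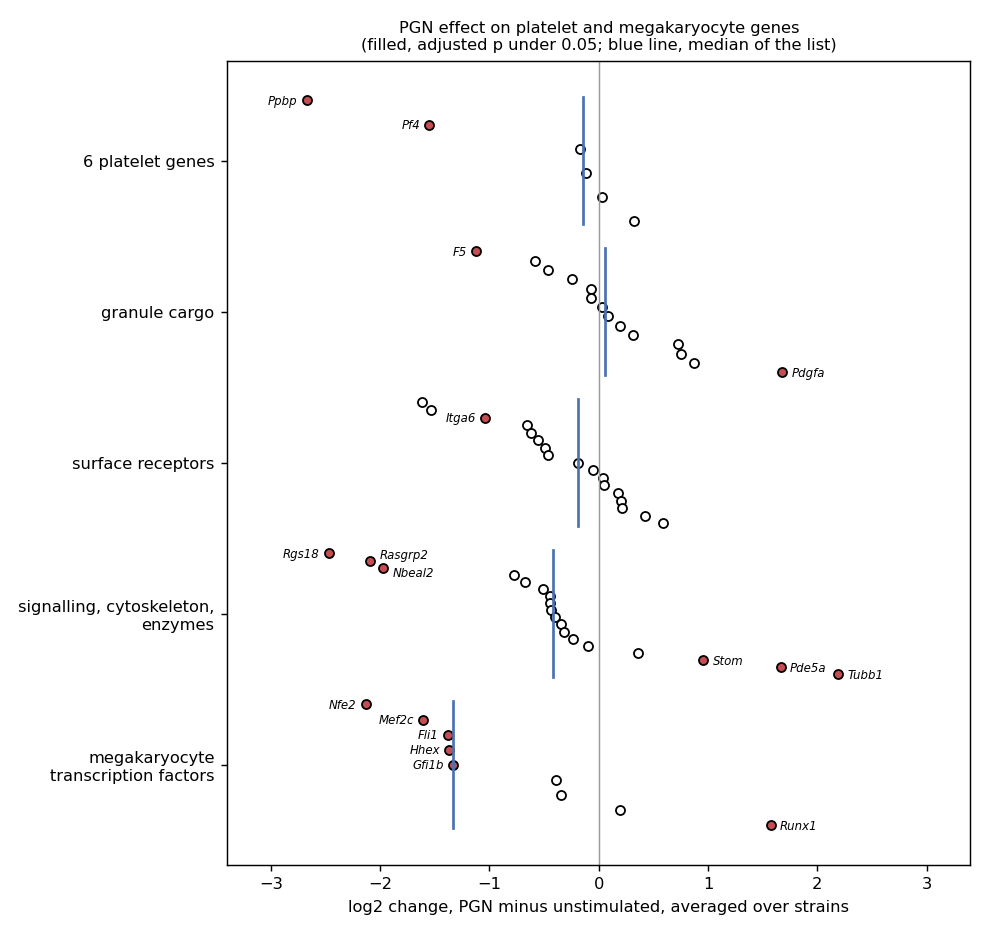
Log2 change with PGN averaged over strains (x axis) of each measured gene in 5 lists, with filled points for genes called in limma and a blue line at the median of a list. Ppbp, Rgs18, Nfe2 and Rasgrp2 lie at -2.67, -2.47, -2.13 and -2.09, and Tubb1, Pdgfa, Pde5a and Runx1 at 2.19, 1.68, 1.66 and 1.58.

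In the strain comparison no gene of these lists was called. Lower means in NOD.Idd3 were found for 10 of 14 granule genes (median -0.10), 15 of 17 surface receptor genes (-0.16), 15 of 18 signalling genes (-0.12) and 6 of 9 transcription factor genes (-0.13), beside 55.4% of all genes. The smallest p-value of each list belonged to Vwf (-0.92 ± 0.31, adjusted p = 0.711 in limma), Clec1b (-0.60 ± 0.23, 0.746), Pde5a (0.72 ± 0.22, 0.670) and Tal1 (-0.85 ± 0.29, 0.730). Gp5, a further subunit of the von Willebrand factor receptor, stood at -0.46 ± 0.18 (0.746) and Tubb1 at -1.25 ± 0.45 (0.732). Higher in NOD.Idd3 were Rgs18 at 0.60 ± 0.39 (0.862), Nfe2 at 0.43 ± 0.21 (0.788) and Fli1 at 0.35 ± 0.24 (0.864).

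The genes whose profile over the 8 arrays was most like the mean of the 6 centred profiles were Peak1 (Pearson r = 0.98), Pcmtd1 (0.98), Esr1 (0.97), Reep3 (0.97), Dtd1 (0.96), Mapre3 (0.96), Dnmt3a (0.96) and Lyst (0.96). That mean is carried mainly by Ppbp and Pf4. Most like Ppbp alone were Stk17b (1.00), Syf2 (0.98), H1f2 (0.98), Gm19696 (0.98) and Card10 (0.97), and most like Pf4 were Esr1 (0.98), Tgif2 (0.98), Dip2b (0.98), Inpp5a (0.97) and Mkrn2 (0.97). None of these genes is in the platelet lists. The 8 arrays share the same PGN and strain groups, and these genes were picked as the highest r of all genes tested. Values this high over few arrays are partly a product of that choice. Whether the genes share a response was not tested.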

How the data were processed

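Total RNA of CD11b+ cells was labelled with biotin and hybridised to 8 arrays, 2 in each of 4 groups taken from the sample labels. The deposited values are 1 intensity per probe set on a linear scale, from 3.97 to 42906, made by the authors with RMA per the submitters' processing notes; its version and chip definition were not stated there. The log2 of each value was taken, with no further normalization or filter. Of 45101 probe sets, 64 controls, 9160 without a symbol and 932 with several were left out, and 34884 of 34945 matched RefSeq (GRCm38.p6). Each gene was represented by its brightest probe set.

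limma 3.58.1 in R 4.3.3 fitted the 4 group means of 18145 genes (4 residual and 4.70 prior degrees of freedom), two-sided, with Benjamini-Hochberg adjustment within each contrast. The fit was tested on simulated data. The number of arrays limits the precision. Replicate 2 minus replicate 1 was correlated across genes between all groups (r from 0.17 to 0.42), and the replicate 1 arrays share a date in their labels. The numbers may therefore pair the arrays, though these facts do not establish it. The suffix RR1 does not follow the numbers. It is in the array names of replicate 2 of both NOD groups and of replicate 1 of unstimulated NOD.Idd3. The main fit has no term for the replicate numbers. An alternative fit adds the number as a replicate block, and its effect and that of the other alternatives are given in the closing section. All members, up to 6 genes per platelet list with the smallest p, the CXC run and its receptors, and the genes of most similar profile are named. The members and lists were chosen with earlier results of these data known.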

Additional observations from a re-analysis of the deposited data

How the results depend on the processing

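Ppbp and Pf4 were called lower for the averaged PGN effect under every alternative run, with 2 of the 6 genes called each time. Without 1 array Ppbp ranged from -3.12 to -2.22 and Pf4 from -1.78 to -1.31. In NOD, 0 of the 6 were called with a term for the suffix RR1 of some array names or with array weights, 1 (Pf4) after a further quantile normalization, and 0 to 2 without 1 array. In NOD.Idd3, 2 were called with the replicate block and 0 otherwise. The block changed no other call of the 6 genes. For the difference in PGN effect and the 3 strain contrasts, 0 of the 6 were called under any alternative. The cause of these shifts was not tested. Over all genes, the averaged PGN effect had 2047 calls, 3075 with the block, 1111 to 2135 without 1 array and 1558 to 3922 under the other alternatives. The calls were 715 in NOD (1582 with the block, 81 to 875 without 1 array) and 568 in NOD.Idd3 (1204 with the block, 56 to 622 without 1 array).

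None of the values that turned sign was called. Gp1bb turned to -0.064 (averaged PGN effect), -0.0040 (PGN in NOD.Idd3) and 0.048 (averaged strain difference) after quantile normalization, and Itga2b to -0.0023 in NOD.Idd3 with RR1 as a term. Without 1 array Gp1bb ranged from -0.028 to 0.093 (averaged PGN effect), -0.091 to 0.045 (NOD), -0.032 to 0.21 (NOD.Idd3), -0.0094 to 0.23 (difference in PGN effect), -0.11 to 0.0096 (averaged strain difference) and -0.12 to 0.13 (strain with PGN). In NOD.Idd3 Itga2b ranged from -0.10 to 0.38 and Gp9 from -0.12 to 0.073. The difference in PGN effect ranged from -0.22 to 1.57 for Ppbp, -0.092 to 0.85 for Pf4 and -0.10 to 0.33 for Treml1. The strain difference with PGN ranged from -1.31 to 0.48 for Ppbp and from -0.27 to 0.00039 for Gp9, and the averaged one from -0.99 to 0.10 for Sparc and -0.27 to 0.013 for Zfpm1. Ppbp kept its sign without 1 array in the averaged strain difference (-1.20 to -0.31) and in NOD.Idd3 with PGN (-3.23 to -1.44). Probe sets near or below the array median limit what could be seen for Gp1bb, Treml1 and Itga2b.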
